A study of Bos taurus with 50 samples.

Results

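The solute carrier (SLC) genes encode membrane proteins that move amino acids, sugars, organic acids, metals, vitamins and ions across the cell surface and the membranes of mitochondria, lysosomes and the Golgi. The 67 SLC genes described here were chosen from the study's own lists of genes that it called for ovarian cyclicity status, week postpartum or the endometrial microbiota, where the symbol starts with SLC. SLC5A1 and SLC23A1 were left out. The 67 genes are among the 18830 of the count table, and since the lists hold only genes that the study had called on part of these libraries, they are not a sample of all transporters of the cow. The lists were used only to pair the Ensembl identifiers with symbols, which they give for 2324 of the 2729 genes they name, and none of their fold changes was used. Of the 67 genes, 55 were in a list for status or week and 12 were only in lists for the microbiota.

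RNA was sequenced from endometrial biopsies of first-lactation Holstein x Jersey dairy cows, taken at week 5 and week 9 postpartum from the uterine horn on the side of the corpus luteum or the largest follicle. CycW5 cows were cycling and under the influence of progesterone (P4) at week 5 (10 libraries at week 5, 10 at week 9), NoCycW5 cows were not yet cycling at week 5 (12 and 11 libraries), and CycNoP4 cows were cycling but without P4 influence at week 5 (4 and 3 libraries). After the week 5 biopsy all cows received the same ovulation synchronization with gonadotropin-releasing hormone, an intravaginal P4 insert and prostaglandin F2α, timed so that the week 9 biopsy would fall in the luteal phase in all 3 statuses. The study analysed CycW5 and NoCycW5 cows and left the CycNoP4 cows out, so the CycNoP4 libraries took no part in choosing the genes. The labels do not link libraries to individual cows, so week 5 and week 9 were treated as separate groups, and P-values measure the spread between libraries.

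Gene counts summed to between 21592867 and 32813237 reads in the 50 libraries (median 28126022.5). No pair of libraries of the same group held the same counts, since the lowest chi-square per degree of freedom over the 220 pairs of libraries within groups was 27.7. A gene is called where the edgeR quasi-likelihood test gave a Benjamini-Hochberg adjusted P (BH P) of 0.05 or less over all genes tested. Values are TMM-scaled CPM (reads of a gene scaled to a common library size), given as the lowest and highest library with the median, or for CycNoP4 as each library in the order 51, 56, 58 and 64 at week 5 and 79, 88 and 94 at week 9. Log2 fold changes are given ± SE from the fitted model. The status difference is the log2 fold change of CycW5 over NoCycW5 at week 5, and the week change is that of week 9 over week 5 within a status.

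The endometrium is lined by a luminal epithelium that is continuous with the uterine glands, and both secrete the uterine fluid on which the early conceptus feeds before it attaches. Transporters in these cells supply that fluid with amino acids, sugars, ions and vitamins, and many transporter genes of the ruminant endometrium are known to be regulated by P4. Oxytocin receptor (OXTR) and oestrogen receptor (ESR1) are classic endometrial genes that are repressed as P4 acts.

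Markers of the labelled tissue were present, as far as the lists pair them. The epithelial genes EPCAM, KRT8 and CLDN4 (3 of a list of 7) summed to a mean of 334 CPM ± 70.9 (SD, n = 12) in NoCycW5, 634 ± 195 (n = 4) in CycNoP4 and 611 ± 297 (n = 10) in CycW5 libraries at week 5. At week 9 the sums were 787 ± 279 (n = 11), 690 ± 265 (n = 3) and 752 ± 234 (n = 10). EPCAM, a surface protein of epithelial cells, had the most reads of the 3 in NoCycW5 libraries at week 5, where it was at 92.7 to 303 CPM (median 206). All 3 epithelial genes were called higher in CycW5 than in NoCycW5 cows at week 5 and higher at week 9 than at week 5 in NoCycW5 cows, by a log2 fold change of 0.71 and 1.09 for EPCAM. The endothelial genes CDH5 and VWF (2 of a list of 4) were called lower at week 5 in CycW5 cows (-0.43 and -0.80). Their summed level was 388 ± 106 CPM in NoCycW5, 295 ± 73.1 in CycNoP4 and 231 ± 59.5 in CycW5 libraries at week 5, and 268 ± 72.3, 259 ± 39.8 and 291 ± 90.7 CPM at week 9 (SD, with n as above). Between the NoCycW5 weeks VWF was called lower (-0.62) and CDH5 was not called (-0.10). The stromal list had only PDGFRA paired, and smooth muscle, leukocyte, blood and cilia lists had no gene paired, so these cells could not be checked. In whole biopsies, fewer cells of a type and less RNA per cell cannot be told apart, and the part of the epithelial and endothelial shares in the transporter values below was not tested.

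**Figure D1:**
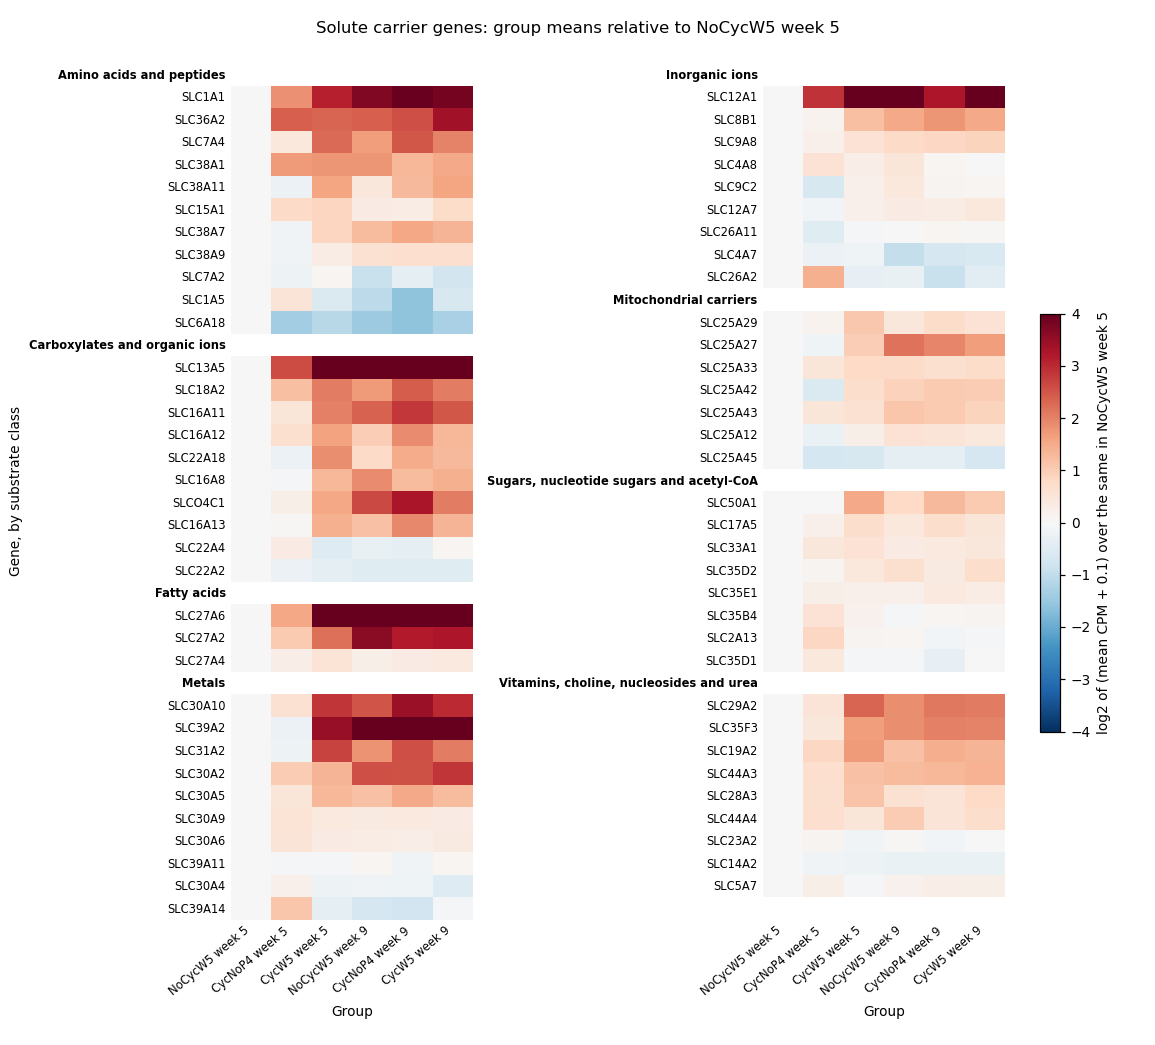
Mean CPM of the 67 SLC genes in each status and week group, by substrate class, as the log2 ratio over the mean of NoCycW5 libraries at week 5 (0.1 CPM added to both; colours end at 4 in each direction). Most genes of every class were above the NoCycW5 week 5 level in CycW5 libraries at week 5 and in all 3 statuses at week 9, and 46 of the 67 genes were above it in CycNoP4 libraries at week 5 (52 in CycW5 libraries).

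Of the 67 genes, 63 had enough reads to be tested in the CycW5 and NoCycW5 libraries and 64 in all 50 libraries. SLC14A2, a urea transporter (9 reads over all libraries), SLC22A2, an organic cation transporter (17 reads), and SLC5A7, the choline transporter of cholinergic neurons (26 reads), were too low to be tested. SLC6A18, an amino acid transporter best known from kidney, passed only with the CycNoP4 libraries included. It had 97 reads over 14 libraries, and no fold change is given for it.

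In CycW5 against NoCycW5 cows at week 5, 45 of the 63 genes were called higher and 1, SLC25A45, was called lower. Among all 15483 genes tested, 15.2% were called higher and 11.4% lower. From week 5 to week 9, 43 of the 63 genes were called higher and 4 lower in NoCycW5 cows, where 19.4% of all genes were called higher and 16.3% lower. The 4 lower genes were SLC1A5, SLC7A2, SLC4A7 and SLC39A14. The median log2 fold change was 0.88 for the status difference and 0.78 for the NoCycW5 week change, against -0.02 and -0.01 over all genes tested. The study had chosen 50 of the 67 genes from its lists for these 2 comparisons, so the counts describe the choice and nothing is read from them. Of these calls, those of SLC25A27, SLC25A43, SLC35D2, SLC38A9 and SLC44A4 for the status difference and of SLC25A29, SLC27A4, SLC39A14 and SLC7A2 for the week change were lost without some single library, and the other 41 and 43 were kept. The genes nearest the threshold of the status difference were SLC25A27 (0.99) and SLC44A4 (0.49, and 0.32 without CycW5 library 70) inside it and SLC25A12 (0.26) and SLC22A4 (-0.52) outside it. The change from week 5 to week 9 was greater in NoCycW5 than in CycW5 cows for 28 of the 63 genes and smaller for none, where 4.99% and 2.83% of all genes were called. By limma-voom 14 of the 63 genes were called for that difference, and 4.01% of all genes. With library quality weights in limma-voom, 30 SLC genes had a greater change and 2 a smaller one, and 20.4% of all genes were called. For 9 of the 28 genes called by edgeR the call was lost when some single library was left out, and 21 were called without NoCycW5 library 93 of week 9 (5.33% of all genes).

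In CycW5 cows no SLC gene was called between week 5 and week 9 by edgeR, where 0.0452% of all genes were. The study had listed 5 of the SLC genes for this comparison (SLC1A1, SLC36A2, SLC7A2, SLC22A2 and SLC22A4), with the cow in its model. SLC22A2 had too few reads to be tested here. The study's model could not be fitted, so the missing calls do not speak against its list. At an unadjusted P under 0.05 there were 9 SLC genes and 14.2% of all genes. DESeq2 called 1 SLC gene and 1.52% of all genes, and limma-voom called 0 of either. With library quality weights in limma-voom, 18 SLC genes were called higher and 5 lower at week 9, where 11.1% of all genes were called higher and 9.46% lower. Between CycW5 and NoCycW5 cows at week 9 no SLC gene was called by edgeR, DESeq2 or limma-voom, and edgeR called 0.00646% of all genes. At an unadjusted P under 0.05 there were 3 SLC genes and 6.41% of all genes by edgeR. The 3 genes were SLC15A1, the intestinal type of peptide transporter (0.44), SLC38A11 (1.16) and SLC39A14 (0.63). The study had listed SLC38A11 for status at week 9, so its place among the 3 describes the choice. Without CycW5 library 89 the difference of SLC39A14 was 0.05, and without CycW5 library 83 that of SLC15A1 was 0.24.

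Some libraries stood apart from their groups. Each library was placed on a scale where 0 is the NoCycW5 mean and 1 the CycW5 mean of week 5, as the median over the 45 genes called higher in CycW5 cows. The NoCycW5 libraries of week 5 were at -0.17 to 0.29. In the CycW5 group of week 5, library 57 was at 0.16 and library 52 at 0.50, and the other libraries were at 0.81 or more. At week 9, NoCycW5 libraries 91 and 76 were at 0.09 and 0.11 while the others were at 0.94 to 1.35, and CycW5 libraries 87 and 89 were at 0.33 and 0.51 while the others were at 0.997 to 1.36. OXTR was at 151 CPM in library 57, 178 in 87, 162 in 91 and 93.6 in 76, where the medians of the CycW5 group of week 5 and of NoCycW5 and CycW5 libraries of week 9 were 43.1, 9.09 and 6.72 CPM. In library 89 it was at 7.44 CPM. A high OXTR level did not mark these libraries alone, since CycW5 libraries 72 and 83 and NoCycW5 library 80 of week 9, which did not stand apart, were at 111, 68.9 and 81.5 CPM. Without libraries 57, 76, 87, 89 and 91, 46 SLC genes were called higher and 4 lower for the status difference, where 18.8% and 19.9% of all genes were. For the NoCycW5 week change 44 and 5 were called (23.3% and 25.2% of all genes), and for the difference between the changes 35 and 1 (8.85% and 7.03%). None was called in CycW5 cows between the weeks or between the statuses at week 9. With library 52 left out as well, the counts of called SLC genes were 49, 49 and 39 for these comparisons in the same order (38.9%, 48.6% and 17.8% of all genes) and again 0 for the last 2. The position of each library over all 2359 genes called higher in CycW5 cows at week 5 ran over a like range in each group, from 0.12 to 1.43 in CycW5 libraries of week 5 and from 0.07 to 1.19 in NoCycW5 libraries of week 9. These positions are a description, because both group means come from the libraries placed. The libraries left out were picked by their positions over genes called for the status difference. The counts without them, here and below, are therefore a description as well.

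Class counts here and below stand beside 15.2% of all genes called higher and 11.4% lower for status, and 19.4% and 16.3% for the NoCycW5 weeks. They describe the choice, and genes listed only for the microbiota ranged from 0 of 3 fatty acid to 4 of 9 inorganic ion transporters. Amino acid and peptide transporters had 8 of 10 tested genes called higher in CycW5 cows at week 5 (median log2 fold change 1.25), and 6 higher and 2 lower at week 9 in NoCycW5 cows. SLC1A1 (ENSBTAG00000019125), which takes up glutamate and aspartate, was at 32.1 to 261 CPM (median 79.5) in NoCycW5, 597, 532, 316 and 128 in CycNoP4 and 120.4 to 2384 (median 664) in CycW5 libraries at week 5. By week 9 it was at 234 to 2368 CPM (median 1618) in NoCycW5, 2131, 1386 and 1554 in CycNoP4 and 322 to 2534 (median 1729) in CycW5 libraries. The CycNoP4 libraries of week 5 were mostly above the NoCycW5 range and inside the CycW5 range, and the groups of week 9 overlapped. The status difference was 3.11 ± 0.49 and the NoCycW5 week change 3.71 ± 0.49.

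SLC7A4 (ENSBTAG00000009145), placed by its sequence with the carriers of cationic amino acids, was at 3.84 to 10.6 CPM (median 6.78) in NoCycW5, 10.1, 9.01, 6.19 and 11.04 in CycNoP4 and 8.15 to 58.8 (median 32.2) in CycW5 libraries at week 5. At week 9 its values were 4.18 to 36.7 CPM (median 23.6) in NoCycW5, 39.7, 25.8 and 48.9 in CycNoP4 and 11.1 to 50.1 (median 25.3) in CycW5 libraries. The CycNoP4 libraries were thus near the NoCycW5 libraries at week 5 and above the medians of both other groups at week 9. SLC38A7 (ENSBTAG00000007170), a lysosomal glutamine exporter, was at 19.2 to 32.8 CPM (median 25.1) in NoCycW5, 15.5, 20.8, 24.4 and 34.4 in CycNoP4 and 24.96 to 74.3 (median 47.4) in CycW5 libraries at week 5. By week 9 it stood at 21.9 to 104 CPM (median 68.3) in NoCycW5, 99.8, 58.9 and 69.9 in CycNoP4 and 26.8 to 99.7 (median 67.7) in CycW5 libraries. The status difference of SLC7A4 was 2.29 ± 0.30 and that of SLC38A7 0.88 ± 0.22. For both genes the CycNoP4 groups of the 2 weeks did not overlap.

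SLC36A2 (ENSBTAG00000020809), a proton-coupled carrier of glycine and proline, was low and uneven, at 0.128 to 1.51 CPM (median 0.468) in NoCycW5, 11.6, 1.78, 0.340 and 2.87 in CycNoP4 and 0.427 to 19.2 (median 1.11) in CycW5 libraries at week 5. At week 9 it was at 0.933 to 13.5 CPM (median 3.15) in NoCycW5, 6.62, 6.30 and 1.30 in CycNoP4 and 0.203 to 27.95 (median 5.06) in CycW5 libraries. CycNoP4 library 51 was the highest of its group, and the highest CycW5 library of week 5 (66) was far above that group's median. SLC38A1, which imports glutamine, had a status difference of 1.78 and a NoCycW5 week change of 1.79, and SLC38A11, of the same family, had 1.61 and 0.46. SLC38A9, the lysosomal arginine sensor that signals to mTORC1, had the smallest status difference of the called amino acid genes (0.32). SLC15A1 had 0.89.

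The glutamine exchanger SLC1A5 (ENSBTAG00000013577) was called lower at week 9 in NoCycW5 cows. It was at 24.04 to 65.2 CPM (median 34.3) in NoCycW5, 100.1, 43.6, 29.4 and 33.4 in CycNoP4 and 8.52 to 49.5 (median 23.6) in CycW5 libraries at week 5. By week 9 it was at 9.03 to 28.4 CPM (median 16.1) in NoCycW5, 10.4, 14.7 and 10.2 in CycNoP4 and 11.4 to 72.2 (median 15.4) in CycW5 libraries. The highest value of each week was in CycNoP4 library 51 at week 5 and CycW5 library 89 at week 9. The NoCycW5 week change was -1.05 ± 0.28, and that of SLC7A2, an arginine and lysine carrier, was -0.95 ± 0.31.

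Carriers of carboxylates and organic ions had 8 of 9 tested genes called higher in each of the 2 comparisons, with a median status difference of 1.92. SLC13A5 (ENSBTAG00000004680), the sodium-coupled citrate transporter, was at 0.791 to 5.36 CPM (median 2.16) in NoCycW5, 38.6, 20.8, 7.18 and 1.42 in CycNoP4 and 3.16 to 330.2 (median 65.0) in CycW5 libraries at week 5. At week 9 it was at 2.61 to 199 CPM (median 40.5) in NoCycW5, 28.3, 36.8 and 273 in CycNoP4 and 9.20 to 357 (median 28.5) in CycW5 libraries. The groups with high values spread widely, and the CycNoP4 libraries of week 5 ran from the level of NoCycW5 libraries to that of CycW5 libraries. The status difference was 5.53 ± 0.72 and the NoCycW5 week change 4.39 ± 0.68. SLC18A2 (ENSBTAG00000004739), which loads monoamines into vesicles, was at 11.8 to 17.02 CPM (median 13.9) in NoCycW5, 67.2, 24.99, 24.9 and 15.02 in CycNoP4 and 14.5 to 113 (median 62.1) in CycW5 libraries at week 5. At week 9 SLC18A2 was at 17.9 to 82.2 CPM (median 48.1) in NoCycW5, 96.8, 71.2 and 64.1 in CycNoP4 and 17.9 to 109 (median 56.2) in CycW5 libraries. It was the 1 SLC gene whose NoCycW5 libraries of week 9 all lay above those of week 5, where 0.368% of all genes were higher and 0.42% lower without overlap. At week 5 no SLC gene separated CycW5 from NoCycW5 libraries, and 0.252% and 0.0646% of all genes did so.

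SLCO4C1 (ENSBTAG00000016359), an organic anion transporter, was at 0.333 to 1.45 CPM (median 0.800) in NoCycW5, 0.912, 1.32, 0.680 and 1.01 in CycNoP4 and 0.855 to 6.92 (median 2.02) in CycW5 libraries at week 5. At week 9 the values were 1.17 to 9.85 CPM (median 4.91) in NoCycW5, 8.08, 4.52 and 13.5 in CycNoP4 and 2.23 to 9.00 (median 2.78) in CycW5 libraries. SLCO4C1 thus had its highest value in a CycNoP4 library of week 9. SLC22A18 (ENSBTAG00000012742), an organic cation transporter-like protein, was at 1.28 to 3.54 CPM (median 2.08) in NoCycW5, 2.43, 1.45, 0.907 and 2.63 in CycNoP4 and 2.07 to 16.2 (median 7.14) in CycW5 libraries at week 5. Its week 9 values were 1.45 to 6.28 CPM (median 3.60) in NoCycW5, 3.99, 6.10 and 9.16 in CycNoP4 and 2.85 to 7.97 (median 5.58) in CycW5 libraries. The CycNoP4 libraries of week 5 lay within or below the NoCycW5 range for SLC22A18.

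SLC16A13 (ENSBTAG00000020853), of the monocarboxylate transporter family, was at 13.5 to 24.5 CPM (median 18.1) in NoCycW5, 22.8, 18.1, 21.2 and 13.7 in CycNoP4 and 18.1 to 91.2 (median 45.6) in CycW5 libraries at week 5. At week 9 SLC16A13 was at 12.8 to 70.8 CPM (median 46.6) in NoCycW5, 62.8, 42.9 and 105 in CycNoP4 and 14.95 to 75.8 (median 51.8) in CycW5 libraries. Its neighbour in the genome and relative SLC16A11 had a status difference of 2.02 beside 1.42 for SLC16A13. These 2 were the only neighbouring pair among the 67 genes in the RefSeq annotation (ARS-UCD2.0). SLC16A8, a lactate carrier, had 1.67 and SLC16A12, a creatine carrier, 1.95. SLC22A4, which carries ergothioneine, was the gene of this class that was not called, with a NoCycW5 week change of -0.29.

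All 3 fatty acid transport proteins were called higher in both comparisons. SLC27A6 (ENSBTAG00000004860) was at 0.0887 to 10.6 CPM (median 0.919) in NoCycW5, 16.9, 1.58, 3.89 and 1.11 in CycNoP4 and 1.94 to 165 (median 46.5) in CycW5 libraries at week 5. By week 9 it was at 2.19 to 122 CPM (median 73.1) in NoCycW5, 265, 121 and 94.1 in CycNoP4 and 3.30 to 314 (median 109.6) in CycW5 libraries. The status difference was 5.05 ± 0.74, the NoCycW5 week change 5.10 ± 0.74, and the week 9 groups overlapped. SLC27A2 (ENSBTAG00000004303), a very long chain acyl-CoA synthetase that also takes up fatty acids, was at 0.177 to 2.20 CPM (median 1.04) in NoCycW5, 2.36, 2.24, 1.36 and 2.70 in CycNoP4 and 0.483 to 17.1 (median 3.30) in CycW5 libraries at week 5. At week 9 SLC27A2 was at 0.617 to 24.2 CPM (median 17.8) in NoCycW5, 20.2, 5.94 and 3.48 in CycNoP4 and 1.34 to 23.7 (median 8.39) in CycW5 libraries. The third of these genes, SLC27A4, had a status difference of 0.55 ± 0.08.

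**Figure D2:**
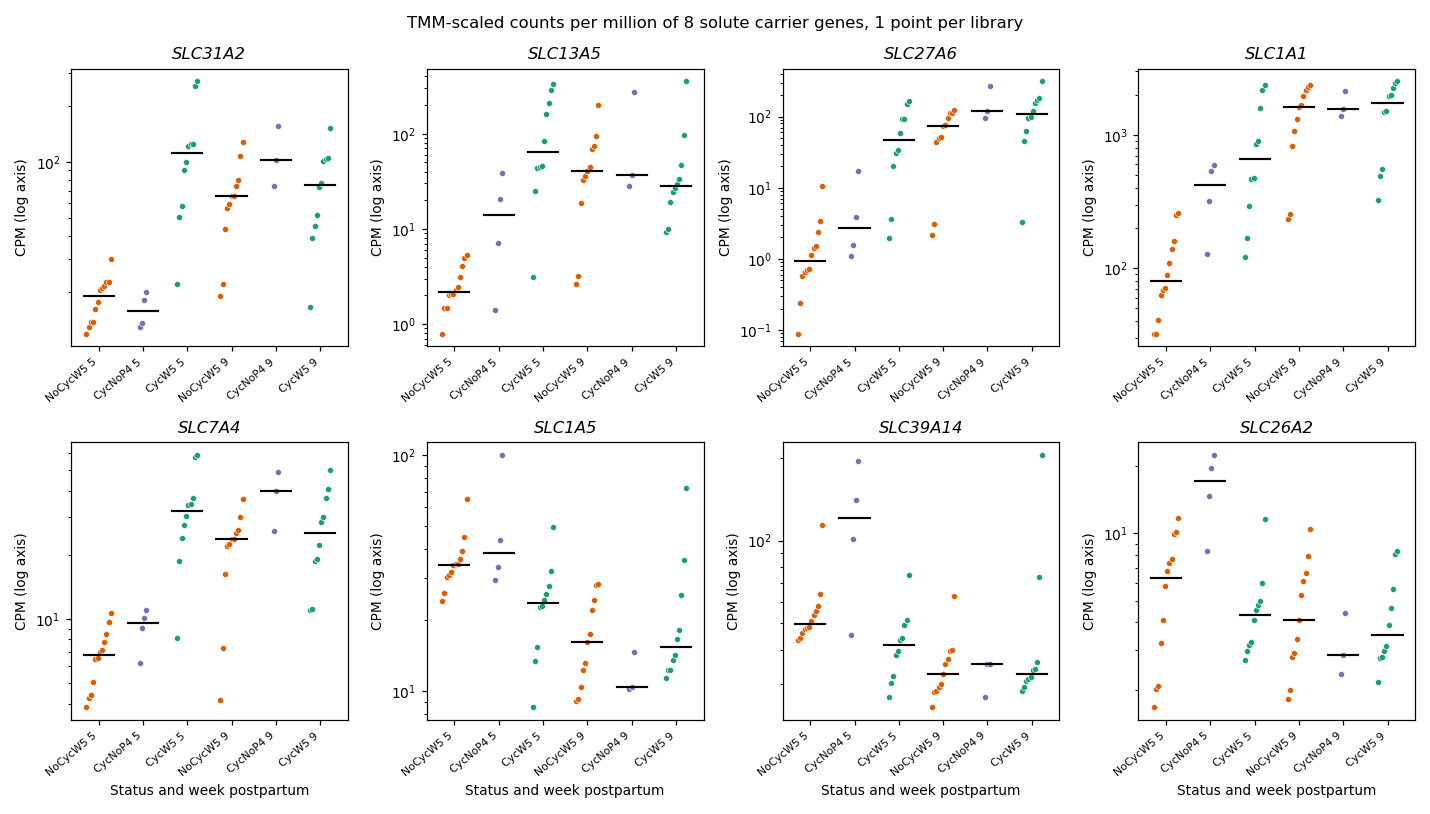
CPM of SLC31A2, SLC13A5, SLC27A6, SLC1A1, SLC7A4, SLC1A5, SLC39A14 and SLC26A2 in each of the 50 libraries on log axes, by status and week postpartum, with bars at group medians. In the first 5 genes the NoCycW5 libraries of week 5 sit low and the week 9 groups overlap at a higher level, and in SLC1A5, SLC39A14 and SLC26A2 the CycNoP4 libraries of week 5 include the highest values of that week.

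Metal transporters had 7 of 10 genes called higher in each comparison and SLC39A14 called lower at week 9 in NoCycW5 cows. SLC31A2 (ENSBTAG00000005115), a copper transporter of the endosome and lysosome, was at 11.8 to 30.03 CPM (median 18.99) in NoCycW5, 17.9, 13.6, 12.8 and 19.8 in CycNoP4 and 21.96 to 272 (median 111) in CycW5 libraries at week 5. At week 9 it was at 19.01 to 128 CPM (median 65.1) in NoCycW5, 102, 74.5 and 156 in CycNoP4 and 16.6 to 152 (median 75.0) in CycW5 libraries. All 4 CycNoP4 libraries of week 5 were inside the NoCycW5 range and below every CycW5 library. The status difference was 2.71 ± 0.34 and the NoCycW5 week change 1.82 ± 0.33.

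SLC39A2 (ENSBTAG00000000936), a zinc importer, was at 0.160 to 5.57 CPM (median 1.03) in NoCycW5, 2.58, 0.990, 0.755 and 0.777 in CycNoP4 and 0.848 to 58.1 (median 1.499) in CycW5 libraries at week 5. At week 9 SLC39A2 was at 0.604 to 201 CPM (median 86.1) in NoCycW5, 99.3, 45.0 and 3.70 in CycNoP4 and 0.878 to 67.2 (median 26.6) in CycW5 libraries. Its CycW5 median at week 5 was close to that of NoCycW5 libraries beside a status difference of 3.56 ± 0.89, and only part of the CycW5 libraries lay above the NoCycW5 range. SLC30A10 (ENSBTAG00000004414), a manganese exporter, had no read in 9 of the 12 NoCycW5 libraries of week 5 and was at 0.0380, 0.231, 0.0378 and 0 CPM in CycNoP4 and 0.0658 to 2.27 (median 0.601) in CycW5 libraries of that week. By week 9 it was at 0 to 1.33 CPM (median 0.604) in NoCycW5, 1.33, 0.242 and 1.99 in CycNoP4 and 0.122 to 3.98 (median 0.555) in CycW5 libraries. Fitted fold changes of SLC30A10 against NoCycW5 or CycNoP4 libraries of week 5 rest on groups with almost no reads.

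The zinc exporters SLC30A6 and SLC30A9 had small status differences and a small spread. SLC30A6 (ENSBTAG00000010898), the partner of SLC30A5 in loading zinc into the Golgi, was at 13.6 to 22.3 CPM (median 16.1) in NoCycW5, 25.4, 26.2, 27.5 and 14.8 in CycNoP4 and 15.6 to 26.4 (median 20.5) in CycW5 libraries at week 5. At week 9 SLC30A6 was at 16.9 to 28.1 CPM (median 19.8) in NoCycW5, 20.2, 19.9 and 19.3 in CycNoP4 and 17.7 to 24.99 (median 21.1) in CycW5 libraries. SLC30A9 (ENSBTAG00000020367) was at 21.6 to 35.5 CPM (median 27.9) in NoCycW5, 41.02, 47.0, 47.6 and 28.5 in CycNoP4 and 28.4 to 42.7 (median 37.8) in CycW5 libraries at week 5, with 30.7 to 50.7 CPM (median 35.2) in NoCycW5, 37.6, 34.3 and 39.8 in CycNoP4 and 30.7 to 46.1 (median 33.9) in CycW5 libraries at week 9. For both, 3 of the 4 CycNoP4 libraries were above every NoCycW5 library of week 5, and library 64 was not. The status differences were 0.34 ± 0.09 and 0.38 ± 0.09, beside 1.32 ± 0.20 for SLC30A5 and 1.72 ± 0.51 for SLC30A2, a vesicular zinc transporter.

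SLC39A14 (ENSBTAG00000019225), an importer of zinc, iron and manganese, was at 43.4 to 114 CPM (median 49.8) in NoCycW5, 195, 140.0, 101 and 45.3 in CycNoP4 and 26.97 to 75.2 (median 41.7) in CycW5 libraries at week 5. At week 9 SLC39A14 was at 24.7 to 62.9 CPM (median 32.6) in NoCycW5, 27.01, 35.5 and 35.5 in CycNoP4 and 28.3 to 205 (median 32.8) in CycW5 libraries. CycNoP4 libraries 51 and 56 were above every other library of week 5, and the highest library of week 9 was CycW5 library 89. The NoCycW5 week change of -0.66 ± 0.26 was called. SLC30A4 and SLC39A11, both zinc transporters listed only for the microbiota, had status differences of -0.20 and -0.07.

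Mitochondrial carriers had 5 of 7 genes called higher and SLC25A45 called lower in CycW5 cows at week 5, and 6 called higher at week 9 in NoCycW5 cows. SLC25A29 (ENSBTAG00000013666), a carrier of basic amino acids, was at 22.5 to 38.8 CPM (median 31.2) in NoCycW5, 55.0, 32.3, 22.5 and 25.998 in CycNoP4 and 32.1 to 89.0 (median 65.3) in CycW5 libraries at week 5. At week 9 SLC25A29 was at 25.7 to 61.6 CPM (median 40.3) in NoCycW5, 41.3, 52.4 and 57.9 in CycNoP4 and 27.2 to 96.8 (median 41.2) in CycW5 libraries. Its status difference was 1.10 ± 0.17 and its NoCycW5 week change 0.45 ± 0.16, and these 2 comparisons share the NoCycW5 libraries of week 5.

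SLC25A27 (ENSBTAG00000016302), a brain-type uncoupling protein, was at 5.69 to 11.1 CPM (median 7.82) in NoCycW5, 5.05, 8.88, 6.72 and 8.24 in CycNoP4 and 4.48 to 31.9 (median 13.2) in CycW5 libraries at week 5. At week 9 SLC25A27 was at 6.75 to 67.4 CPM (median 39.3) in NoCycW5, 41.9, 24.6 and 28.3 in CycNoP4 and 3.66 to 56.3 (median 27.4) in CycW5 libraries, and its NoCycW5 week change was 2.20 ± 0.36. Its highest values were in the week 9 groups. SLC25A42 (ENSBTAG00000001816), which carries coenzyme A, was at 2.26 to 5.65 CPM (median 3.87) in NoCycW5, 1.75, 2.77, 1.66 and 4.42 in CycNoP4 and 4.46 to 10.6 (median 6.08) in CycW5 libraries at week 5. At week 9 SLC25A42 was at 3.12 to 10.6 CPM (median 8.57) in NoCycW5, 9.82, 7.27 and 8.26 in CycNoP4 and 3.22 to 12.8 (median 8.95) in CycW5 libraries. CycNoP4 libraries 51 and 58 were below every other library of week 5 for this gene.

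SLC25A12 (ENSBTAG00000016762), the aspartate-glutamate carrier of the malate-aspartate shuttle, was at 42.2 to 57.6 CPM (median 50.8) in NoCycW5, 32.1, 50.3, 40.4 and 45.2 in CycNoP4 and 46.7 to 79.2 (median 59.1) in CycW5 libraries at week 5. At week 9 SLC25A12 was at 49.7 to 93.9 CPM (median 79.7) in NoCycW5, 78.2, 70.2 and 69.7 in CycNoP4 and 46.1 to 87.4 (median 68.4) in CycW5 libraries. CycNoP4 libraries 51 and 58 were the lowest of all libraries, and the NoCycW5 week change was 0.59 ± 0.10. SLC25A43 (ENSBTAG00000001007) was at 5.52 to 10.02 CPM (median 6.44) in NoCycW5, 13.0, 9.71, 8.57 and 7.495 in CycNoP4 and 7.34 to 20.7 (median 9.43) in CycW5 libraries at week 5, with 6.15 to 20.7 CPM (median 15.4) in NoCycW5, 17.1, 11.5 and 14.4 in CycNoP4 and 6.15 to 18.1 (median 13.3) in CycW5 libraries at week 9. Its NoCycW5 week change was 1.12 ± 0.19. SLC25A33, a pyrimidine nucleotide carrier, had a status difference of 0.82 and SLC25A45 of -0.70.

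Carriers of sugars, nucleotide sugars and acetyl-CoA had 5 of 8 genes called higher in each comparison, and the other 3 were listed only for the microbiota. SLC50A1 (ENSBTAG00000003083), a sugar transporter of the SWEET family, was at 8.42 to 14.8 CPM (median 11.8) in NoCycW5, 15.6, 11.7, 8.91 and 10.7 in CycNoP4 and 14.4 to 65.5 (median 32.04) in CycW5 libraries at week 5. At week 9 SLC50A1 was at 7.55 to 39.97 CPM (median 21.1) in NoCycW5, 19.3, 22.5 and 47.4 in CycNoP4 and 12.6 to 53.1 (median 22.2) in CycW5 libraries. Its status difference of 1.53 ± 0.23 was the largest of the class. SLC17A5 (ENSBTAG00000044053), the lysosomal sialic acid exporter, was at 27.1 to 36.3 CPM (median 31.1) in NoCycW5, 26.2, 36.4, 46.7 and 35.6 in CycNoP4 and 32.1 to 72.0 (median 49.5) in CycW5 libraries at week 5, with 31.4 to 52.3 CPM (median 42.4) in NoCycW5, 47.3, 53.8 and 53.5 in CycNoP4 and 29.7 to 69.5 (median 40.9) in CycW5 libraries at week 9. Its status difference was 0.70 ± 0.11.

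SLC33A1 (ENSBTAG00000014318), which carries acetyl-CoA into the endoplasmic reticulum, was at 44.7 to 70.9 CPM (median 53.3) in NoCycW5, 109.9, 77.0, 63.3 and 44.9 in CycNoP4 and 54.9 to 98.0 (median 81.6) in CycW5 libraries at week 5. At week 9 SLC33A1 was at 56.3 to 86.8 CPM (median 66.3) in NoCycW5, 72.3, 62.7 and 78.0 in CycNoP4 and 59.6 to 91.6 (median 73.4) in CycW5 libraries. The 4 CycNoP4 libraries of week 5 spanned nearly the whole of the NoCycW5 and CycW5 ranges. SLC35D2 (ENSBTAG00000019939), a nucleotide sugar transporter of the Golgi, was at 8.34 to 16.4 CPM (median 12.9) in NoCycW5, 13.0, 17.8, 9.48 and 15.7 in CycNoP4 and 12.5 to 25.9 (median 15.7) in CycW5 libraries at week 5, with 13.7 to 32.2 CPM (median 19.7) in NoCycW5, 15.1, 14.6 and 19.8 in CycNoP4 and 14.8 to 36.5 (median 19.5) in CycW5 libraries at week 9. Its NoCycW5 week change was 0.66 ± 0.15. SLC35E1 had a status difference of 0.21 ± 0.07, the smallest of all called genes in this class. SLC35B4 and SLC35D1, nucleotide sugar transporters, and SLC2A13, the proton-coupled myo-inositol carrier, were listed only for the microbiota and had 0.18, -0.09 and 0.10.

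Carriers of vitamins, choline and nucleosides had 6 of 7 tested genes called higher in CycW5 cows at week 5 and 5 called higher at week 9 in NoCycW5 cows. SLC29A2 (ENSBTAG00000012024), an equilibrative nucleoside transporter, was at 5.85 to 16.0 CPM (median 10.9) in NoCycW5, 15.7, 17.8, 12.4 and 14.96 in CycNoP4 and 10.2 to 75.3 (median 55.8) in CycW5 libraries at week 5. At week 9 SLC29A2 was at 7.81 to 57.6 CPM (median 41.7) in NoCycW5, 46.7, 43.9 and 46.1 in CycNoP4 and 11.6 to 78.3 (median 45.6) in CycW5 libraries. Its status difference was 2.33 ± 0.30, and its CycNoP4 libraries of week 5 lay within or just above the NoCycW5 range. SLC35F3 (ENSBTAG00000020361), a thiamine transporter, was at 0.575 to 4.96 CPM (median 1.63) in NoCycW5, 7.18, 2.51, 0.264 and 1.49 in CycNoP4 and 2.91 to 12.0 (median 6.75) in CycW5 libraries at week 5, with 2.58 to 13.7 CPM (median 9.20) in NoCycW5, 14.5, 6.62 and 5.22 in CycNoP4 and 1.99 to 15.5 (median 9.02) in CycW5 libraries at week 9. Its NoCycW5 week change was 1.92 ± 0.33. SLC19A2, the other thiamine carrier among the genes, had a status difference of 1.70 ± 0.26.

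The nucleoside carrier SLC28A3 had a status difference of 1.15 ± 0.35. SLC44A3 and SLC44A4, of the choline transporter-like family, had 1.18 ± 0.22 and 0.49 ± 0.18. SLC23A2, a vitamin C carrier listed only for the microbiota, had -0.14 ± 0.18 and was not called. Of the choline and mTORC1 partner genes that the lists pair, choline kinase CHKA was called higher in CycW5 cows at week 5 (0.69 ± 0.19). CHPT1, which joins choline phosphate to diacylglycerol, was called lower in the same comparison (-0.50 ± 0.15). Between the NoCycW5 weeks CHPT1 was called lower (-0.38 ± 0.14) and CHKA was not called (0.29 ± 0.18). PCYT1A, the enzyme between them, was called higher in CycNoP4 than in NoCycW5 cows at week 5 (0.42 ± 0.13), and RRAGC, a lysosomal GTPase that works with SLC38A9, was called higher in CycNoP4 than in CycW5 cows (0.25 ± 0.09).

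Of the 9 inorganic ion transporters, 4 of them listed only for the microbiota, 3 were called higher in each comparison and SLC4A7, a sodium bicarbonate carrier, lower at week 9 in NoCycW5 cows (-0.94 ± 0.25). SLC8B1 (ENSBTAG00000011103), the sodium-calcium exchanger of mitochondria, was at 55.1 to 123 CPM (median 83.5) in NoCycW5, 106, 82.3, 70.9 and 105 in CycNoP4 and 88.3 to 437 (median 142) in CycW5 libraries at week 5. At week 9 SLC8B1 was at 109 to 449 CPM (median 229) in NoCycW5, 284, 260.2 and 308 in CycNoP4 and 82.9 to 416 (median 233) in CycW5 libraries. Its CycNoP4 libraries were inside the NoCycW5 range at week 5. SLC12A1 (ENSBTAG00000010145), the sodium-potassium-chloride cotransporter best known from kidney, had no read in 9 of the 12 NoCycW5 libraries of week 5 and was at 3.68, 1.49, 0 and 0.135 CPM in CycNoP4 and 0 to 26.9 (median 1.31) in CycW5 libraries. At week 9 SLC12A1 was at 0 to 35.3 CPM (median 3.62) in NoCycW5, 2.52, 1.78 and 0.838 in CycNoP4 and 0.122 to 23.7 (median 1.503) in CycW5 libraries. Its fitted fold changes against NoCycW5 libraries of week 5 rest on a group where most libraries had no read.

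SLC26A2 (ENSBTAG00000014615), a sulfate carrier, was at 1.67 to 11.7 CPM (median 6.30) in NoCycW5, 19.5, 22.4, 14.7 and 8.37 in CycNoP4 and 2.71 to 11.6 (median 4.33) in CycW5 libraries at week 5. At week 9 SLC26A2 was at 1.82 to 10.4 CPM (median 4.11) in NoCycW5, 4.40, 2.87 and 2.36 in CycNoP4 and 2.16 to 8.30 (median 3.51) in CycW5 libraries. CycNoP4 libraries 51, 56 and 58 were above every other library of either week. SLC9A8, a sodium-proton exchanger, had a status difference of 0.60 ± 0.14. SLC12A7, a potassium-chloride cotransporter, SLC26A11, a sulfate carrier, SLC4A8, a bicarbonate carrier, and SLC9C2 were not called and had status differences of 0.20, -0.06, 0.26 and 0.22.

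The CycNoP4 libraries show where cows that cycled without P4 influence stood at week 5. Against NoCycW5 cows, 11 of 64 genes were called higher and 1 lower, where 9.92% of all 16120 genes were called higher and 6.52% lower. Against CycW5 cows, 3 were called higher and 18 lower, where 9.62% and 8.29% of all genes were called. With only the compared groups fitted, there were 6 calls against NoCycW5 cows (5.84% of all genes) and 12 against CycW5 cows (11.5% of all genes). Both comparisons share the CycW5 and NoCycW5 libraries with the choice of the genes, so no P-value is given. In these libraries OXTR was at 247, 277, 172 and 119.9 CPM, of which 2 were above the NoCycW5 range of 80.3 to 222 CPM (median 111), and KRT8 and EPCAM were called higher than in NoCycW5 cows (0.92 ± 0.17 and 0.87 ± 0.30).

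In 17 genes CycNoP4 cows were called lower than CycW5 cows and not called against NoCycW5 cows, a pattern of 6.0% of all genes tested. They included SLC31A2 (-2.93 ± 0.52 against CycW5 and -0.21 ± 0.43 against NoCycW5 cows), SLC7A4 (-1.86 ± 0.43 and 0.43 ± 0.37) and SLC22A18 (-2.16 ± 0.42 and -0.25 ± 0.37). SLC27A6 (-3.47 ± 1.08 and 1.58 ± 0.84) and SLC29A2 (-1.80 ± 0.43 and 0.52 ± 0.37) were of the same kind. In 8 genes CycNoP4 cows were called higher than NoCycW5 cows and not called against CycW5 cows, as were 5.38% of all genes. These were SLC1A1 (1.84 ± 0.56), SLC36A2 (2.54 ± 0.78), SLC38A1 (1.73 ± 0.53), SLC18A2 (1.21 ± 0.35), SLC12A1, SLC30A6, SLC30A9 and SLC33A1. Without CycNoP4 library 51 the difference from NoCycW5 cows was 1.23 for SLC36A2, 0.60 for SLC18A2, 2.51 for SLC12A1 and 0.18 for SLC33A1, and none of them was called. A missing call against 1 group does not show that the groups were alike.

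SLC13A5 lay between the other statuses, called higher than in NoCycW5 (2.66 ± 0.80) and lower than in CycW5 cows (-2.87 ± 1.03). Among all genes 0.062% were called this way. Leaving out 1 library lost its call against CycW5 cows in 8 of 14 fits, with log2 fold changes of -3.66 to -2.49. The call against NoCycW5 cows was lost in 2 of 16 fits (1.87 to 3.05). SLC26A2 was called higher than in both (1.42 ± 0.40 and 1.75 ± 0.42), as was SLC39A14 (1.10 ± 0.34 and 1.48 ± 0.34). SLC1A5 was called higher than in CycW5 cows only (1.09 ± 0.37, and 0.55 and not called without library 51), and SLC25A45 was called lower than in NoCycW5 cows only (-0.75 ± 0.26). Among all genes 4.47% were called higher than in both, 5.15% higher than in CycW5 cows only and 4.29% lower than in NoCycW5 cows only. The remaining 34 SLC genes and 72.4% of all genes were called in neither comparison. Of the 12 calls against NoCycW5 cows, that of SLC30A9 alone was kept whichever library was left out, and 1 call was made without CycNoP4 library 51 (0.95% of all genes), 3 without 56 (5.3%) and 18 without 64 (29.6%). Of the 21 calls against CycW5 cows, 8 were kept, and 12 were made without library 56 (9.75% of all genes) and 13 without library 51 (6.9%) or 58 (11.2%). With libraries 57, 76, 87, 89 and 91 left out, 20 genes were higher and 1 lower than in NoCycW5 cows, where 14.6% and 9.2% of all genes were called. Against CycW5 cows 4 were higher and 27 lower, where 14.2% and 11.4% of all genes were called.

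**Figure D3:**
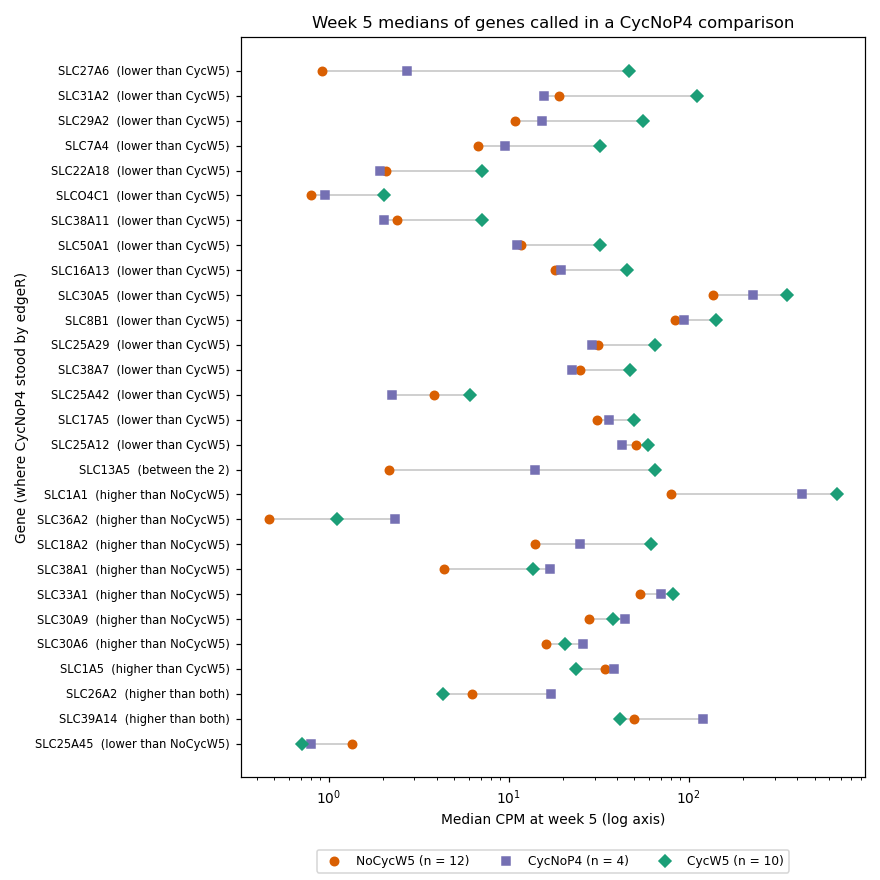
Median CPM at week 5 of 28 SLC genes called in a comparison of CycNoP4 with NoCycW5 or CycW5 cows, on a log axis, with 1 symbol per status and the call in words beside each gene. The CycNoP4 symbol lies on or near the NoCycW5 symbol in genes such as SLC31A2 and SLC50A1, near the CycW5 symbol or beyond it in SLC38A1 and SLC30A9, and to the right of both in SLC26A2 and SLC39A14 (SLC12A1 and SLC30A10 are left out because a median is 0).

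The week change in CycNoP4 cows is the 1 comparison whose compared libraries took no part in the choice of the genes. Its gene filter and the spread behind its P-values still came from the fit of all 50 libraries, which includes those used for the choice. From week 5 to week 9, 18 of 64 genes rose and 3 fell, where 9.74% of all genes tested were called higher and 9.85% lower. The study's list for the NoCycW5 weeks had named 34 of the SLC genes, and all cows received the same synchronization. Counts of SLC genes beside all genes in this comparison therefore describe the choice, and nothing is read from them. The median log2 fold change was 0.57 for the SLC genes and -0.02 for all genes. In 25 genes all 3 libraries of week 9 were above all 4 of week 5 and in 5 they were below, where 14.0% and 12.3% of all genes tested did so. With only the compared groups fitted, 14 of 62 SLC genes rose and 3 fell. In that fit 8.1% of all genes were called, against 19.6% in the shared fit of all 50 libraries. With libraries 57, 76, 87, 89 and 91 left out of the shared fit, 25 SLC genes rose and 3 fell, where 12.7% of all genes were called higher and 14.6% lower.

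The organic ion carrier SLCO4C1 rose by 3.14 ± 0.59 on the log2 scale (edgeR BH P = 0.00151) and SLC31A2 by 2.79 ± 0.58 (edgeR BH P = 0.00259). Their week 5 and week 9 values, given above, did not overlap. SLC27A6 rose by 4.77 ± 1.25 (edgeR BH P = 0.00902) and SLC7A4 by 2.07 ± 0.50 (edgeR BH P = 0.00613). SLC38A7 and SLC16A13 rose by 1.68 ± 0.39 and 1.89 ± 0.44 (edgeR BH P = 0.00521 for both). The mitochondrial SLC25A42, SLC25A12 and SLC8B1 rose by 1.67 ± 0.38, 0.79 ± 0.18 and 1.64 ± 0.45 (edgeR BH P = 0.00439, 0.00505 and 0.0114). The glutamine exchanger SLC1A5 fell, with a log2 fold change of -2.14 ± 0.54 (edgeR BH P = 0.00775). These 10 calls were kept whichever of the 7 CycNoP4 libraries was left out.

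The other 11 calls were each lost without at least 1 library. SLC26A2 and SLC39A14 fell (-2.34 ± 0.62 and -1.88 ± 0.50, edgeR BH P = 0.00968 and 0.00982). SLC22A18 (1.79 ± 0.48), SLC38A9 (0.79 ± 0.21) and SLC16A11 (2.34 ± 0.67) rose with an edgeR BH P of 0.0102, 0.0107 and 0.0142. Without library 94 of week 9 the log2 fold change was -2.19 for SLC26A2 (edgeR BH P = 0.0521), 1.41 for SLC22A18 (edgeR BH P = 0.0735) and 0.43 for SLC38A9 (edgeR BH P = 0.199). Without library 79 of week 9 it was -1.78 for SLC39A14 (edgeR BH P = 0.0536) and 2.16 for SLC16A11 (edgeR BH P = 0.0519). SLC25A27 (2.13 ± 0.62) and SLC50A1 (1.34 ± 0.40) rose with an edgeR BH P of 0.0161 and 0.018 and were each lost without either of 2 libraries. These were 51 and 79 for SLC25A27 and 58 and 94 for SLC50A1, which had 0.80 without library 94 (edgeR BH P = 0.213). SLC30A10 was also called higher, and its call was lost without 51 or 94. Its CycNoP4 libraries of week 5 held almost no reads (0 to 0.231 CPM), so no fold change is given and nothing is read from the call. SLC39A2 (5.27 ± 1.63, edgeR BH P = 0.0207) was lost without 56, 58 or 79. SLC29A2 (1.58 ± 0.50, edgeR BH P = 0.0234) and SLC30A5 (1.03 ± 0.35, edgeR BH P = 0.0327) were each lost without 51, 58, 79 or 94 and 1 further library, 88 for SLC29A2 and 64 for SLC30A5, with an edgeR BH P of up to 0.0654 and 0.137. In all, 14 genes were called without library 94 of week 9 (8.07% of all genes) and 22 without library 64 of week 5 (28.1%).

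The week changes of NoCycW5 and CycNoP4 cows share no library, so their directions can be set side by side. Of the 43 SLC genes called higher at week 9 in NoCycW5 cows, 38 (88.4%) had a positive week change in CycNoP4 cows, 18 were called higher and none lower, with a median of 1.34. Of all 3009 genes called higher in NoCycW5 cows, 79.6% had a positive week change in CycNoP4 cows, 797 (26.5%) were called higher and 21 lower, with a median of 0.45. All 4 SLC genes called lower in NoCycW5 cows had a negative week change in CycNoP4 cows, and SLC1A5 and SLC39A14 were called. Among all 2524 genes called lower in NoCycW5 cows, 77.0% had a negative one, 623 (24.7%) were called lower and 14 higher. Both sets of cows received the same synchronization, and a test of the difference between the SLC genes and all genes was not made. The SLC genes had also been called by the study in some comparison, and all genes were not chosen in that way. The shares are therefore not like for like. In genes with a large change in NoCycW5 cows the CycNoP4 change could be small, as in SLC12A1 (6.31 ± 1.21 against 0.37 ± 1.70, with no read in most NoCycW5 libraries of week 5) and SLC36A2 (2.52 ± 0.63 against 0.19 ± 1.10). OXTR fell in CycNoP4 cows over the same weeks (log2 fold change -5.36 ± 1.46, edgeR BH P = 0.0112), to 3.41, 10.02 and 1.58 CPM, and so did ESR1 (-1.16 ± 0.42, edgeR BH P = 0.0435). None of the epithelial genes EPCAM (0.15 ± 0.42), KRT8 (-0.36 ± 0.24) and CLDN4 (0.88 ± 0.83) was called in that comparison, and CDH5 and VWF were not called either.

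**Figure D4:**
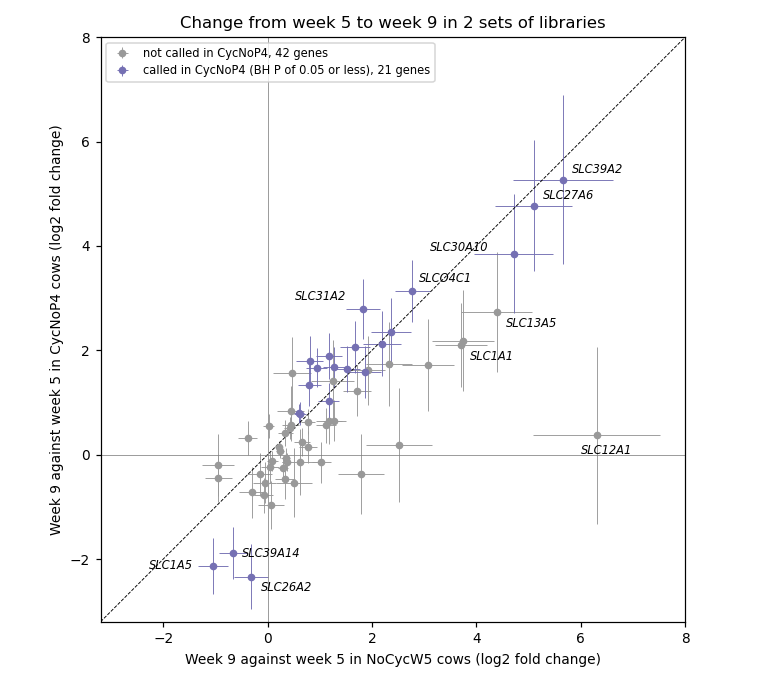
Log2 fold change of week 9 over week 5 in NoCycW5 cows (horizontal) and in CycNoP4 cows (vertical) for 63 SLC genes, with bars of 1 SE and the line of equal change dashed. The 21 coloured genes were called in CycNoP4 cows, and 18 of them lie in the upper right and 3 in the lower left, while SLC12A1 lies far to the right near 0 on the vertical axis.

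At week 9, no SLC gene was called between CycNoP4 cows and the mean of CycW5 and NoCycW5 cows by edgeR, DESeq2 or limma-voom, and 0.0% of all genes tested were by edgeR. At an unadjusted P under 0.05 there was 1 SLC gene by edgeR, SLCO4C1 (0.95 ± 0.42), and 5.95% of all genes. The fitted difference was 0.65 ± 0.43 for SLC31A2 and 0.80 ± 0.84 for SLC27A6. With 3 libraries in the CycNoP4 group, the lack of a call does not show equal levels.

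Of the 12 genes listed only for the microbiota, 10 were tested in the CycW5 and NoCycW5 libraries and none was called in any of the 5 comparisons of those groups, where 26.6% of all genes were called for the status difference at week 5, 35.7% between the NoCycW5 weeks and 7.82% for the difference between the changes. Being listed only for the microbiota means that the study had not called them for status or week on part of the same libraries. The lack of calls in those groups thus describes the choice, and nothing is read from it. The 11 tested with all libraries included 1 called gene, SLC26A2, in the CycNoP4 comparisons of week 5 and between the weeks, where 16.4%, 17.9% and 19.6% of all genes were called against NoCycW5 cows, against CycW5 cows and between the weeks. The microbiota measures of the cows were not analysed here.

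Over the 50 libraries, the genes whose log2 CPM ran most like SLC31A2 among 16120 genes were RSPRY1 (Spearman's rho 0.93), CHURC1-FNTB (0.93), the lysosomal activator GM2A (0.93), ENSBTAG00000047676 (0.92) and CMTM7 (0.92). The libraries share status and week, so these values describe a common pattern over the 6 groups.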

How the data were processed

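The authors made stranded mRNA libraries, sequenced them as single-end reads, trimmed the reads with cutadapt and fqtrim, mapped them with Hisat2 to the UMD3.1 cattle assembly and used FeatureCounts with the Ensembl annotation. What they deposited is a table of raw counts, with 18830 genes as its rows and 50 libraries as its columns. The submitters' processing notes also name StringTie and edgeR. Tool versions and the strand setting of the counting are not given in the sources used here.

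The counts were analysed in R 4.3.3 with edgeR 4.0.16 (TMM, filterByExpr, robust quasi-likelihood). CycW5 and NoCycW5 libraries were fitted as 4 group means (43 libraries, 15483 genes), and the CycNoP4 comparisons came from 6 group means over all 50 libraries (16120 genes). P-values were adjusted over all genes tested. The study used limma with the cow and principal components of the microbiota in its model, which could not be fitted because libraries are not linked to cows.

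The solute carrier genes and all lists were chosen with earlier results of these data known. Substrate classes and roles are textbook knowledge. Full values go to 32 genes: the 2 largest status differences and the 2 largest NoCycW5 week changes of each class (group mean of at least 1 CPM), the 8 with the smallest P for the CycNoP4 weeks, up to 6 by P in each other CycNoP4 comparison, and genes called in opposite directions for status and week. Every other tested gene has a log2 fold change, except SLC6A18. Of the partner genes fixed for context, only RRAGC, CHKA, PCYT1A and CHPT1 could be paired with identifiers. Alternatives were DESeq2 1.42.0 (its Wald test and its size factors), limma 3.58.1 voom with and without library quality weights, no filter, a filter of at least 1 CPM in at least 10 libraries, a fit of only the compared groups, all 6 groups in a fit and leaving out each library. Leaving out the 5 libraries that stood apart, or these and library 52, and fitting only the week 5 libraries were added after seeing the data. The tests were tested on simulated data.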

Additional observations from a re-analysis of the deposited data

Results flagged for a closer look

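Several libraries were far from the rest of their group in a single gene. Of 96 groups of 4 to 10 libraries checked, 20 held such a value, and about 5 in 100 would by chance. The check covered only the CycW5 groups of both weeks and the CycNoP4 group of week 5. The NoCycW5 groups, which hold more libraries, and the other CycNoP4 group, which holds fewer, were not checked. That no library of those groups is named below is therefore not a result. Each named value is the highest of its group unless stated otherwise.

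In CycW5 libraries of week 5, library 70 stood far above the others in SLC12A1 (26.9 CPM, group median 1.31), SLC25A43 (20.7, median 9.43), SLC27A2 (17.1, median 3.30) and SLCO4C1 (6.92, median 2.02). Library 45 did so in SLC26A2 (11.6, median 4.33) and SLC30A10 (2.27, median 0.601), library 66 in SLC36A2 (19.2, median 1.11) and library 52 in SLC39A14 (75.2, median 41.7). In CycW5 libraries of week 9, library 72 stood apart in SLC13A5 (357 CPM, median 28.5), SLC25A29 (96.8, median 41.2), SLC30A10 (3.98, median 0.555) and SLC50A1 (53.1, median 22.2). Library 89 did so in SLC1A5 (72.2, median 15.4) and SLC39A14 (205, median 32.8), library 81 in SLC35D2 (36.5, median 19.5) and SLCO4C1 (8.998, median 2.78), and library 83 in SLC12A1 (23.7, median 1.503).

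Among the CycNoP4 libraries of week 5, library 56 was apart in SLC30A10 (0.231 CPM) and library 51 in SLC39A2 (2.58 CPM), and library 64 was apart below the others in SLC30A6 (14.8 CPM). The SLC30A10 value rests on few reads.

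By the edgeR interaction test, the week change of NoCycW5 cows was not that of CycW5 cows in 20 of the 32 genes with full values, where 4.99% of all genes were called with a greater change in NoCycW5 cows and 2.83% with a smaller one. The NoCycW5 change minus the CycW5 change was 6.88 for SLC12A1, 5.31 for SLC13A5, 4.83 for SLC39A2, 4.56 for SLC30A10 and 4.14 for SLC27A6 on the log2 scale. It was 2.98 for SLC1A1, 2.67 for SLC27A2, 2.48 for SLC31A2, 2.25 for SLCO4C1 and 2.08 for SLC29A2. For SLC7A4 it was 1.97, for SLC18A2 1.70, for SLC35F3 1.59, for SLC22A18 1.39 and for SLC50A1 1.28. The values of SLC12A1 and SLC30A10 rest on NoCycW5 libraries of week 5 of which 9 of 12 had no read. The smaller differences were 1.22 for SLC16A13, 1.18 for SLC8B1, 0.94 for SLC25A29, 0.61 for SLC17A5 and 0.46 for SLC33A1. The call of SLC8B1 was lost in 26 of the 43 fits that left out 1 library, that of SLC27A2 in 7, that of SLC35F3 in 5 and that of SLC16A13 in 4. The study had chosen most of these genes from the same groups, and the genes with full values were picked for large differences in them, so these values are a description.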

How the results depend on the processing

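Of 88 counts of called SLC genes under alternatives other than leaving out 1 library, 80 stayed within 1.5 times the reported count. Week 9 against week 5 in CycW5 cows gave 1 call by DESeq2's Wald test and 23 by limma-voom with quality weights, against 0. The difference between the changes of the statuses gave 14 by limma-voom (4.01% of all genes) against 28. CycNoP4 against NoCycW5 cows at week 5 gave 6 with only the compared groups fitted (5.84% of all genes, against 16.4%) and 21 without libraries 57, 76, 87, 89 and 91 (23.8%) or without these and library 52, against 12. CycNoP4 against CycW5 cows gave 12 with only the compared groups (11.5%, against 17.9%) and 33 without the 6 libraries (27.8%), against 21. The causes were not tested.

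Leaving out 1 library at a time gave 41 to 47 calls for CycW5 against NoCycW5 cows at week 5 (21.5% to 31.9% of all genes), 45 to 48 for the NoCycW5 weeks (31.8% to 38.6%), 0 to 2 for the CycW5 weeks (0.0% to 2.47%, with 2 without library 72 of week 9) and 21 to 34 for the difference between the changes (5.12% to 13.8%). It gave 1 to 18 for CycNoP4 against NoCycW5 cows (0.95% to 29.6%), 12 to 25 against CycW5 cows (6.9% to 26.96%) and 14 to 22 for the CycNoP4 weeks (7.95% to 28.1%). Both week 9 comparisons between statuses gave 0 throughout. Among 4180 values of single named genes under all alternatives, 3945 kept their side of the threshold and 235 crossed it. Of the 4180, 0 were called in the opposite direction. Fold changes near 0 that were not called could change sign.

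No paired analysis was possible because the labels link no library to a cow and the replicate numbers follow accession order only. SLC12A1 and SLC30A10 had 0 reads in 9 of 12 NoCycW5 libraries of week 5, and 3 SLC genes had too few reads to test. The 4 and 3 CycNoP4 libraries limit what those comparisons could detect.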

Other observations

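Identifiers ENSBTAG00000007302 and ENSBTAG00000034323 have no symbol in the study's lists, which describe both as members of the facilitated glucose transporter family, and so the rule on symbols left them out. Between the weeks they went the other way from most solute carrier genes, and at week 5 they were not called between CycW5 and NoCycW5 cows by edgeR (-0.06 and -0.04 for ENSBTAG00000034323 and ENSBTAG00000007302). ENSBTAG00000034323 was at 0.607 to 107 CPM (median 10.2) in NoCycW5, 3.99 to 47.4 (median 15.2) in CycNoP4 and 0.200 to 39.3 (median 21.7) in CycW5 libraries at week 5. At week 9 it was at 0 to 7.58 CPM (median 0.143), 0.0311 to 0.889 (median 0.239) and 0.0695 to 16.6 (median 0.970). Levels at week 5 varied widely within each status and the week 9 medians were far lower in all 3 statuses. Its CycNoP4 week change was -5.76 ± 1.99 on the log2 scale (edgeR BH P = 0.0362), and that of ENSBTAG00000007302 was -5.40 ± 2.05 (edgeR BH P = 0.055). The NoCycW5 week changes were -4.31 ± 0.98 and -4.13 ± 1.03 in the same order. The CycW5 week changes were -2.54 ± 0.94 and -2.37 ± 0.99 and were not called by edgeR. The sequences of these 2 genes were not compared, so whether reads were split between them was not tested and their values are uncertain. They were chosen after their values were seen.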
